A study of Homo sapiens with 12 samples.

Results

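The transcripts of 10 genes of the nuclear lamina and inner nuclear membrane were followed in RNA-sequencing libraries of HCT116 cells, a human colorectal carcinoma line. The members were taken by name from the 58233 genes of the count table: the lamins LMNA, LMNB1 and LMNB2, the lamin B receptor LBR, the LEM-domain genes TMPO, EMD and LEMD3, their DNA-binding partner BANF1, and the SUN-domain genes SUN1 and SUN2. All 10 were found and all 10 passed the filter on low counts, with between 567 and 10572 reads per gene and library. The libraries came from HCT116 Tet-OsTIR1 (parental) cells and from HCT116 Tet-OsTIR1 SDS22 WT (SDS22) cells, in each case without drugs or after 48 h in 2 µg/ml doxycycline (Dox) plus 500 µM IAA. Each of the 4 groups held 3 libraries, so 12 in all, which the series' design describes as independent experiments. Both lines carry the rice F-box protein TIR1 at the AAVS1 locus behind a tetracycline-inducible promoter. Following the study's methods, the second line, here called SDS22-degron, also carries an mAID-mClover tag on endogenous SDS22, the PP1 regulator encoded by PPP1R7. Dox switches on TIR1, and IAA, an auxin, then directs the tagged protein to the proteasome. The untreated SDS22-degron cells therefore carried the tag without the drugs, and the treated parental cells had the drugs and TIR1 without the tag. The study expanded the degron line from an individual colony, so a difference between the lines cannot be told apart from a difference between that colony and its parent.

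The nuclear lamina is a meshwork of lamin filaments beneath the inner nuclear membrane that carries peripheral heterochromatin and gives the nucleus its stiffness. A-type lamins are splice products of LMNA, whereas B-type lamins are made from LMNB1 and LMNB2. LBR and the LEM-domain proteins bind lamins and chromatin, BANF1 bridges LEM-domain proteins to DNA, and SUN proteins connect the lamina to nesprins and thereby to the cytoskeleton. The envelope is taken apart and rebuilt at each open mitosis, in which phosphorylation and PP1-dependent dephosphorylation of lamins and their partners take part. The values given here are transcript levels only.

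The total count per library was 12133915 to 14657508, and the 10 members took between 0.151% and 0.263% of them. The log2 levels of replicates correlated with r between 0.990 and 0.995 across genes. PPP1R7 did not pass the test in any comparison, with a log2 difference of 0.12 ± 0.0880 (SE, edgeR quasi-likelihood test, adjusted p = 0.265) between treated and untreated SDS22-degron cells, which does not check depletion because the degron acts on the protein. Of 7 markers of colorectal epithelium, 6 were detected in all libraries (EPCAM, CDH1, KRT8, KRT18, KRT19 and CDX2), whereas VIL1 had at most 2 reads. The 3 leukocyte and 2 endothelial markers had at most 1 read per library. Of 3 fibroblast markers, COL3A1 and PDGFRB had at most 4 and 3 reads, and COL1A1 had 117 to 410 and was called higher with Dox/IAA in both lines (log2 fold change 0.81 in parental and 0.94 in SDS22-degron cells, edgeR); its part in the results was not tested. In these bulk samples, fewer cells expressing a gene and less RNA per cell cannot be told apart.

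In untreated parental cells, the levels per length, in normalized read counts scaled to library size (CPM) per kb of gene model, ranged from 131.3 ± 10.9 (SD, n = 3) for LMNB2 to 9.31 ± 0.946 for LEMD3. LMNA followed at 101 ± 7.06, then BANF1 at 56.8 ± 2.41, LMNB1 at 52.9 ± 4.50 and EMD at 45.8 ± 2.41, then TMPO at 33.5 ± 4.95 and LBR at 28.6 ± 2.43, and last SUN1 at 15.5 ± 1.21 and SUN2 at 13.02 ± 0.989, above LEMD3. The intervals of mean ± SD overlapped for the neighbours BANF1 and LMNB1 and for TMPO and LBR. The order depends on the length of the gene model, which need not be that of the transcripts expressed. Without division by length, LMNA was at 703 ± 49.3 CPM and LMNB2 at 713 ± 58.9 CPM in untreated parental cells. In treated parental cells LMNB2 was again first and LEMD3 last, at 113 ± 9.52 and 12.0 ± 0.953 CPM per kb. In untreated SDS22-degron cells TMPO stood below LBR, at 16.1 ± 0.261 against 25.1 ± 1.16 CPM per kb, and BANF1, LMNB1 and EMD lay within their spread of each other. In treated SDS22-degron cells the order was different at both ends. LMNA (69.8 ± 3.59 CPM per kb) and LMNB2 (67.8 ± 4.08) lay within their spread of each other, and TMPO was last at 8.60 ± 0.619, below SUN2 at 10.9 ± 1.08. LMNB1 was at 19.3 ± 2.53, within its spread of SUN1 at 17.7 ± 0.770.

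**Figure D1:**
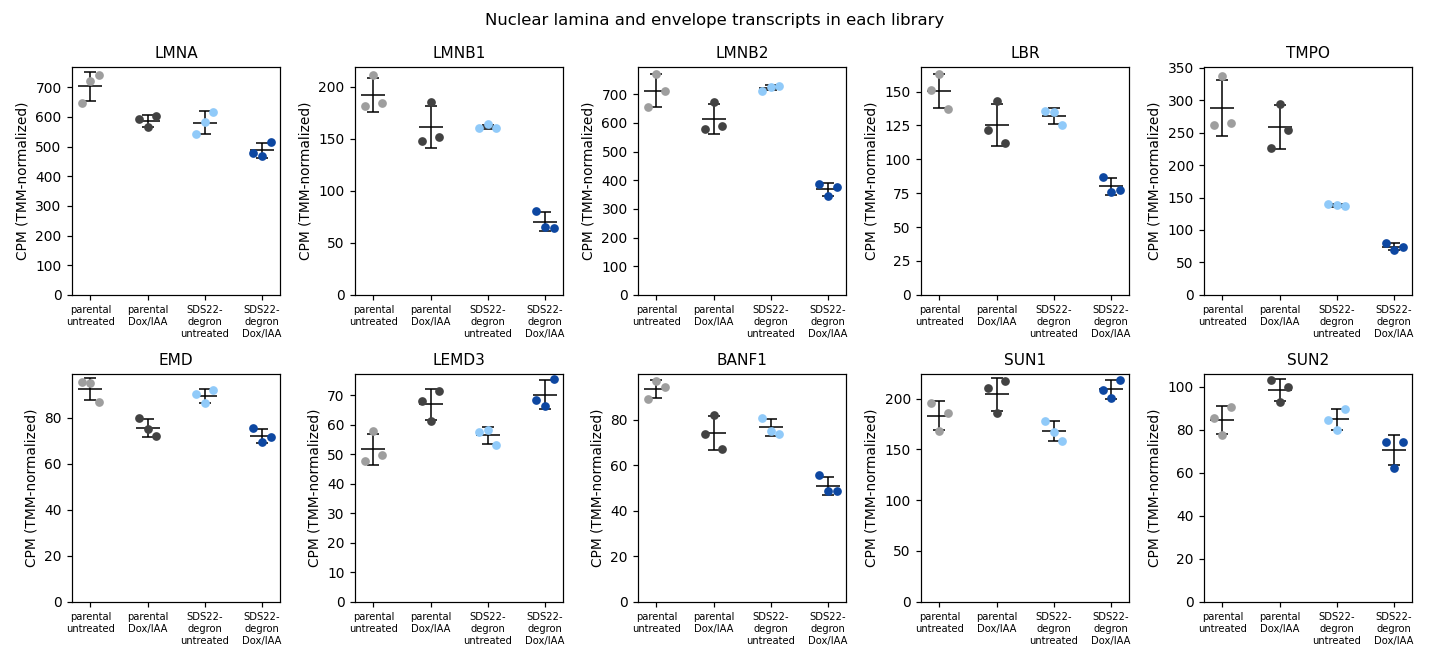
Level of each of the 10 genes in CPM (TMM-normalized, linear axis from 0) in the 4 groups, with 1 point per library and the mean ± SD of 3 libraries in black. LMNA, LMNB1, LMNB2, LBR, TMPO, BANF1 and SUN2 were lowest in the 3 treated SDS22-degron libraries, whereas EMD, LEMD3 and SUN1 were not.

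The 4 comparisons and the interaction asked whether the transcripts differed between the lines with the drugs, between the lines without them, and between treated and untreated cells of each line. They share groups pairwise and are not independent of each other. A gene was called at an adjusted p under 0.05 over the 16657 genes tested with edgeR. Between the treated lines, 7 of 10 members were lower in SDS22-degron cells and 0 higher, while EMD, LEMD3 and SUN1 did not pass. Among all tested genes, 23.1% were called lower and 21.8% higher. The median log2 fold change was -0.51 for the members and -0.01 for all tested genes. Between the untreated lines, 4 members were lower (LMNA, LMNB1, TMPO and BANF1) and 0 higher, against 15% and 13.2% of all genes, with a median of -0.16. Dox/IAA lowered 8 members in SDS22-degron cells and raised LEMD3 and SUN1, against 25.5% and 26% of all genes, with a median of -0.45. In parental cells, 6 members fell and 2 rose (LEMD3 and SUN2), against 15.7% and 15.9% of all genes, with a median of -0.23. With single libraries left out, the count in parental cells varied. It was down to 3 lower without untreated parental replicate 2, or treated parental replicate 1 or 3. It was down to 1 higher without untreated parental replicate 1 or 2, treated parental replicate 1 or 3, or untreated SDS22-degron replicate 1. It was up to 7 lower and 3 higher without treated parental replicate 2, where TMPO and SUN1 were also called. The drug effect itself was lower in SDS22-degron than in parental cells for 5 members (LMNB1, LMNB2, TMPO, SUN2 and LBR) and higher for 0, against 8.35% and 6.03% of all genes.

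The libraries of the compared groups did not overlap for 7 members between the treated lines, all lower in SDS22-degron cells, a pattern found for 27.2% of all genes, and for 0 members higher, against 25.7%. Between the untreated lines this held for 5 members (LMNA, LMNB1, LBR, TMPO and BANF1), all lower, against 21.9% of all genes, and for 0 members higher, against 21.6%. In SDS22-degron cells the treated and untreated libraries did not overlap for all 10 members, 8 lower and 2 higher with Dox/IAA, against 29.7% and 30.2% of all genes. In parental cells 3 members were lower without overlap (LMNA, EMD and BANF1) and 2 higher (LEMD3 and SUN2), against 20.2% and 21.1%.

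The study's cut-off for changed genes, an unadjusted p under 0.05 with an absolute log2 fold change above 1, was passed by few members. Between the treated lines, LMNB1 and TMPO were lower by this rule and 0 members higher, against 3.38% and 3.25% of all genes. Between the untreated lines, TMPO was lower and 0 higher, against 1.3% and 2.84%. With Dox/IAA in SDS22-degron cells LMNB1 was lower and 0 higher, against 4.02% and 3.82%, and in parental cells 0 members passed in either direction, against 0.792% lower and 2.35% higher. The interaction passed for 0 members, against 2.46% of all genes lower and 1.15% higher.

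**Figure D2:**
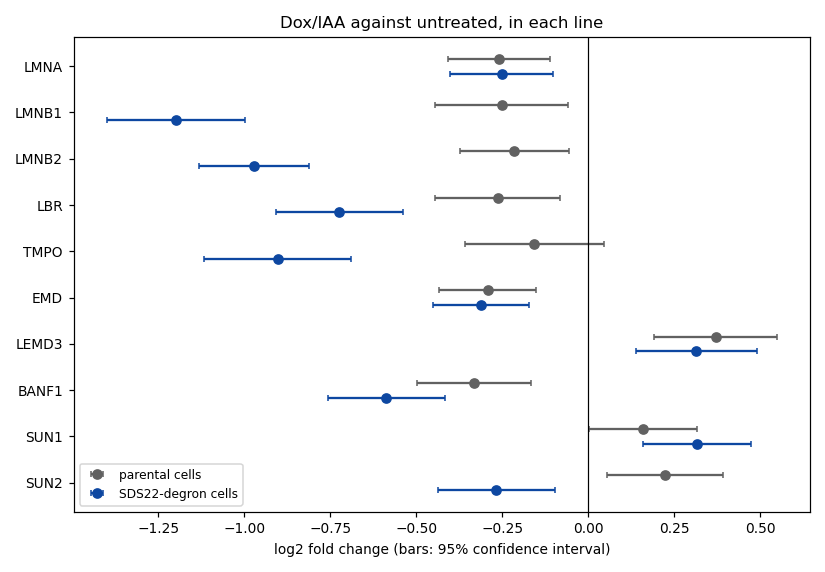
Log2 fold change of each gene with Dox/IAA against untreated cells, in parental (grey) and SDS22-degron cells (blue). Bars are the 95% confidence interval derived from the edgeR test. The values of the lines lay side by side for LMNA (-0.26 and -0.25) and EMD (-0.29 and -0.31), far apart for LMNB1 (-0.25 and -1.20), and on opposite sides of 0 for SUN2 (0.22 and -0.27).

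LMNB1 (ENSG00000113368, chr5:126776623-126837020, GRCh38), a B-type lamin, was one of the members with the largest changes. Its level was 181, 211 and 184 CPM in the untreated and 148, 185 and 152 CPM in the treated parental libraries. In SDS22-degron libraries it was 159.9, 164 and 160.2 CPM untreated and 80.8, 65.6 and 64.3 CPM treated. All 3 treated SDS22-degron libraries lay below all 9 others, while treated and untreated parental libraries overlapped. The treated SDS22-degron mean was 43.5% of the treated parental mean, with a log2 fold change of -1.20 ± 0.0958 (SE, edgeR quasi-likelihood test, adjusted p = 2.43e-08). Dox/IAA gave the same rounded log2 change, -1.20 ± 0.0956, within SDS22-degron cells (edgeR, adjusted p = 1.56e-08), and -0.25 ± 0.0921 in parental cells (adjusted p = 0.0451). The drug effects differed by -0.95 ± 0.132 on the log2 scale (edgeR interaction, adjusted p = 0.000139). Between the untreated lines the log2 difference was -0.25 ± 0.0919 (edgeR, adjusted p = 0.0465). The parental drug effect on LMNB1 was not called without untreated parental replicate 2 or 3, treated parental replicate 1 or 3, or any 1 of the untreated SDS22-degron libraries (edgeR, adjusted p between 0.0524 and 0.196). The difference between the untreated lines was not called without any 1 of the 3 untreated parental or 3 untreated SDS22-degron libraries, treated parental replicate 1 or 3, or treated SDS22-degron replicate 3 (edgeR, adjusted p between 0.0503 and 0.238), and it was -0.16 without untreated parental replicate 2. Normalized by library size only, neither was called, at -0.19 in parental cells and -0.23 between the untreated lines (edgeR, adjusted p = 0.144 and 0.0874), nor was the parental effect with only the compared groups fitted (adjusted p = 0.0743).

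LMNB2 (ENSG00000176619, chr19:2427638-2456996, GRCh38), the other B-type lamin gene, was measured at 654, 772 and 713 CPM in untreated and 579, 674 and 590.2 CPM in treated parental libraries. In SDS22-degron libraries it was 712, 727 and 728 CPM untreated and 385, 343 and 376 CPM treated. The untreated lines overlapped, and the treated SDS22-degron libraries were again below all others. Dox/IAA left 51.0% of the untreated level in SDS22-degron cells (log2 fold change -0.97 ± 0.0764, edgeR, adjusted p = 1.30e-08) and 86.1% in parental cells (-0.22 ± 0.0755, adjusted p = 0.0367). The difference between these effects was -0.76 ± 0.107 (edgeR interaction, adjusted p = 0.000156). The parental call was lost without untreated parental replicate 2 or 3, treated parental replicate 1 or 3, or untreated SDS22-degron replicate 2 (edgeR, adjusted p between 0.0508 and 0.167), with library size only (0.135) and with only the compared groups fitted (0.0942). The untreated lines differed by 0.02 with a 95% confidence interval of -0.14 to 0.18. TIMM13, a mitochondrial import chaperone gene, overlaps LMNB2 on the same strand, with 7916 reads against 94033 over the 12 libraries. Its log2 change with Dox/IAA in SDS22-degron cells was -0.96 ± 0.0913, and reads of the shared stretch cannot be assigned to either gene from these counts.

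LMNA (ENSG00000160789, chr1:156082573-156140089, GRCh38), which encodes lamins A and C, had another pattern. Its level was 648, 721 and 741 CPM in untreated and 593, 565 and 604 CPM in treated parental libraries. In SDS22-degron libraries it was 541, 584 and 617 CPM untreated and 480.0, 467 and 516 CPM treated. Libraries did not overlap in any of the 4 comparisons, yet the steps between groups were small. The treated SDS22-degron mean was 83.0% of the treated parental mean (log2 fold change -0.27 ± 0.0710, edgeR, adjusted p = 0.00471), and the untreated lines differed by -0.28 ± 0.0709 (adjusted p = 0.00662). Dox/IAA changed LMNA by -0.25 ± 0.0710 in SDS22-degron and -0.26 ± 0.0709 in parental cells (edgeR, adjusted p = 0.00621 and 0.00935). The drug effects differed by 0.01, with a 95% confidence interval of -0.20 to 0.22 (edgeR interaction, adjusted p = 0.971).

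The ratio of LMNA to LMNB1, both per kb, was higher in 1 of the 4 groups. It was 1.91 ± 0.163 (SD, n = 3) in untreated and 1.91 ± 0.280 in treated parental cells, and 1.87 ± 0.123 in untreated SDS22-degron cells. Treated SDS22-degron cells had a ratio of 3.65 ± 0.542, with 3.09, 3.71 and 4.17 in the single libraries, all above the other 9, which lay between 1.59 and 2.09. The log2 ratio differed by 0.93 between the treated lines and by 0.96 with Dox/IAA in SDS22-degron cells, each with a two-sided exact permutation p of 0.1, the smallest that 3 against 3 libraries allow. It differed by -0.03 between the untreated lines (exact permutation p = 0.6) and by -0.0034 with Dox/IAA in parental cells (exact permutation p = 0.9). Of the summed level of the 3 lamins, LMNA took 35.4% ± 1.41 in untreated parental, 34.9% ± 2.82 in treated parental and 31.9% ± 1.24 in untreated SDS22-degron cells, and 44.5% ± 1.82 in treated SDS22-degron cells. LMNB1 took 18.6%, 18.4%, 17.04% and 12.3% in the same order, and LMNB2 46.1%, 46.7%, 51.1% and 43.2%. The shares and the size of the ratio depend on the gene-model lengths. The differences of the log2 ratio between groups do not.

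**Figure D3:**
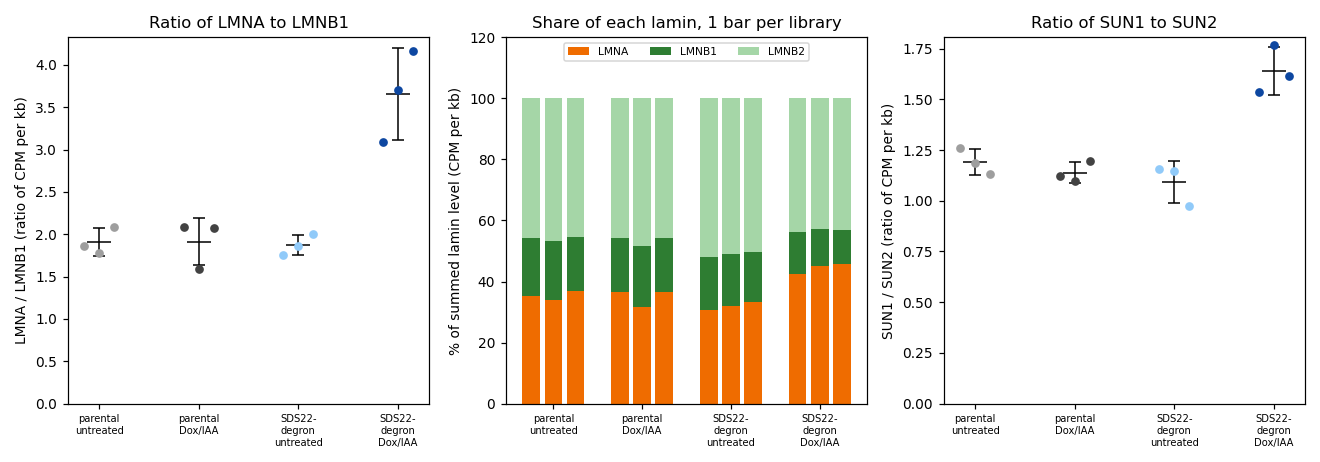
Left, ratio of LMNA to LMNB1; middle, share of each lamin in the summed lamin level, 1 bar per library; right, ratio of SUN1 to SUN2; all from CPM per kb, with points for libraries and mean ± SD of 3 libraries in black. The ratio of LMNA to LMNB1 was 3.09 to 4.17 in treated SDS22-degron libraries and 1.59 to 2.09 in the other 9, and the ratio of SUN1 to SUN2 was 1.54 to 1.77 and 0.973 to 1.26.

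LBR (ENSG00000143815, chr1:225401502-225428925, GRCh38) encodes the inner membrane receptor for B-type lamins, which also has sterol reductase activity. It was at 151, 163 and 137 CPM in untreated and 121, 143 and 112 CPM in treated parental libraries, and at 136, 135 and 125.0 CPM untreated and 87.0, 75.8 and 77.1 CPM treated in SDS22-degron libraries. The last 3 lay below the other 9. Dox/IAA changed it in SDS22-degron cells by -0.72 ± 0.0883 on the log2 scale (edgeR, adjusted p = 2.03e-06), and the treated lines differed by -0.65 ± 0.0885 (adjusted p = 1.04e-05). The parental drug effect was -0.26 ± 0.0866 (edgeR, adjusted p = 0.0268) and the interaction -0.46 ± 0.123 (adjusted p = 0.0177). The parental call was lost without untreated parental replicate 1 or 2 or treated parental replicate 1 or 3 (edgeR, adjusted p between 0.0523 and 0.148), with library size only (0.0933) and with only the compared groups fitted (0.0635). The interaction was -0.40 (edgeR, adjusted p = 0.0511) without untreated parental replicate 3 and -0.34 (adjusted p = 0.0521) without treated parental replicate 2. Between the untreated lines LBR differed by -0.19, without overlap of the libraries, and was not called. With a term for the replicate number in the fit it was called, at -0.19 (edgeR, adjusted p = 0.0464).

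TMPO (ENSG00000120802, chr12:98515512-98550379, GRCh38) encodes the lamina-associated LAP2 proteins, among them the nucleoplasmic LAP2α that binds A-type lamins. It was the member that differed most between the lines, with or without the drugs. Parental libraries had 262, 337 and 265 CPM untreated and 226, 294 and 255 CPM treated, whereas SDS22-degron libraries had 141, 138 and 136 CPM untreated and 79.2, 68.6 and 73.9 CPM treated. The lines did not overlap in either condition, and parental groups overlapped each other. SDS22-degron cells had 48.0% of the parental level untreated (log2 fold change -1.06 ± 0.0981, edgeR, adjusted p = 3.95e-07) and 28.6% with Dox/IAA (-1.81 ± 0.102, adjusted p = 6.04e-10). Within SDS22-degron cells the drugs changed TMPO by -0.90 ± 0.101 (edgeR, adjusted p = 7.62e-07), within parental cells by -0.16 ± 0.0963 (adjusted p = 0.229), and these effects differed by -0.75 ± 0.140 (adjusted p = 0.00151). Without treated parental replicate 2, the parental effect was called at -0.26 (edgeR, adjusted p = 0.0433). Since the untreated lines already differed, the comparison of the treated lines holds both differences.

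Reads of TMPO could be shared with a processed pseudogene, TMPOP2, which had 1681 reads against 29159 for TMPO. TMPOP2 was at 15.3, 17.6 and 15.3 CPM in untreated parental and 8.82, 8.60 and 7.74 CPM in untreated SDS22-degron libraries, and at 3.74, 3.56 and 4.12 CPM in treated SDS22-degron libraries. Its log2 fold change was -0.94 ± 0.124 between the untreated and -2.02 ± 0.142 between the treated lines (edgeR, adjusted p = 2.02e-05 and 6.59e-09). The antisense gene TMPO-AS1, with 810 reads on the opposite strand, differed by -0.04 ± 0.180 between the untreated lines (edgeR, adjusted p = 0.901) and by -1.14 ± 0.197 between the treated lines (adjusted p = 0.000126). The libraries were made with a stranded kit, but the strand setting of the counting was not given in the sources used here.

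EMD (ENSG00000102119, chrX:154379197-154381523, GRCh38) and LEMD3 (ENSG00000174106, chr12:65169571-65248327, GRCh38), which encode emerin and the SMAD-binding protein MAN1, are the other LEM-domain members. EMD was at 95.6, 95.1 and 86.9 CPM in untreated and 79.9, 74.9 and 71.9 CPM in treated parental libraries, and at 90.4, 86.2 and 92.0 CPM untreated and 75.4, 69.5 and 71.5 CPM treated in SDS22-degron libraries. The drugs lowered it in both lines, and the lines overlapped within each condition. Its log2 change with Dox/IAA was -0.29 ± 0.0669 in parental (edgeR, adjusted p = 0.00279) and -0.31 ± 0.0669 in SDS22-degron cells (adjusted p = 0.000752), with an interaction of -0.02 (95% confidence interval -0.22 to 0.18). LEMD3 was at 47.9, 57.8 and 49.8 CPM in untreated and 68.1, 61.2 and 71.7 CPM in treated parental libraries, and at 57.7, 58.4 and 53.1 CPM untreated and 68.5, 66.3 and 75.7 CPM treated in SDS22-degron libraries. It was the member called higher in both lines, by 0.37 ± 0.0847 in parental and 0.31 ± 0.0837 in SDS22-degron cells (edgeR, adjusted p = 0.00277 and 0.00422). The difference between these effects was -0.06, with a 95% confidence interval of -0.31 to 0.19.

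BANF1 (ENSG00000175334, chr11:66002079-66004149, GRCh38) encodes the small DNA-bridging protein BAF, which gathers chromatin and LEM-domain proteins when the envelope reforms. Its level was 89.1, 96.8 and 94.4 CPM in untreated and 73.7, 81.9 and 67.0 CPM in treated parental libraries, and 80.9, 75.2 and 73.6 CPM untreated and 55.5, 48.8 and 48.5 CPM treated in SDS22-degron libraries. Groups did not overlap in any of the 4 comparisons. It was called in all 4 of them, with log2 fold changes of -0.54 ± 0.0812 between the treated and -0.29 ± 0.0786 between the untreated lines (edgeR, adjusted p = 2.85e-05 and 0.0101), and of -0.59 ± 0.0809 and -0.33 ± 0.0789 with Dox/IAA in SDS22-degron and parental cells (adjusted p = 8.19e-06 and 0.00367). The interaction was -0.25 ± 0.113 (edgeR, adjusted p = 0.143), with a 95% confidence interval of -0.49 to -0.02 before adjustment. BANF1P3, a processed pseudogene with 1773 reads against 11430 for BANF1, differed by -0.68 ± 0.146 between the treated lines. EIF1AD overlaps BANF1 on the opposite strand, with 7872 reads, and was not called in any comparison. Its log2 fold change was -0.15 ± 0.118 between the treated lines and -0.25 ± 0.118 with Dox/IAA in SDS22-degron cells (edgeR, adjusted p = 0.323 and 0.0885).

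The SUN-domain genes did not change alike. SUN1 (ENSG00000164828, chr7:816615-896435, GRCh38) was at 196, 168 and 186 CPM in untreated and 210.2, 186 and 217 CPM in treated parental libraries, and at 178, 167 and 159 CPM untreated and 208, 201 and 219 CPM treated in SDS22-degron libraries. The drugs raised it in SDS22-degron cells by 0.32 ± 0.0745 (edgeR, adjusted p = 0.00166), without overlap of the libraries. In parental cells the value was 0.16 ± 0.0745 (edgeR, adjusted p = 0.113) and the interaction was 0.16 with a 95% confidence interval of -0.06 to 0.38, so that a difference between the lines was not shown. Without treated parental replicate 2, the parental effect was called at 0.23 (edgeR, adjusted p = 0.0276), as it was with library size only, at 0.22 (adjusted p = 0.0267). SUN2 (ENSG00000100242, chr22:38734725-38794143, GRCh38) was at 85.3, 77.7 and 90.5 CPM in untreated and 103, 93.1 and 99.7 CPM in treated parental libraries, and at 84.7, 80.1 and 89.7 CPM untreated and 74.5, 62.4 and 74.5 CPM treated in SDS22-degron libraries. The untreated lines overlapped, the treated parental libraries were above and the treated SDS22-degron libraries below them. SUN2 rose by 0.22 ± 0.0801 in parental (edgeR, adjusted p = 0.0405) and fell by 0.27 ± 0.0809 in SDS22-degron cells (adjusted p = 0.0100), and the effects differed by -0.49 ± 0.114 (edgeR interaction, adjusted p = 0.00710). The parental call was lost without untreated parental replicate 1 or 2, treated parental replicate 1 or 3 or untreated SDS22-degron replicate 1 (edgeR, adjusted p between 0.0544 and 0.150). With the GC correction it was 0.13 and not called (edgeR, adjusted p = 0.190). The call in SDS22-degron cells was lost without treated SDS22-degron replicate 2, at -0.19 (edgeR, adjusted p = 0.0686).

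The ratio of SUN1 to SUN2 per kb was 1.19 ± 0.0654 (SD, n = 3) in untreated parental, 1.14 ± 0.0514 in treated parental and 1.09 ± 0.103 in untreated SDS22-degron cells. It was 1.64 ± 0.117 in treated SDS22-degron cells, whose 3 libraries lay above the other 9. SUN2 overlaps GTPBP1 on the opposite strand (9824 reads against 13120), which changed by 0.52 ± 0.0744 with Dox/IAA in SDS22-degron cells, opposite in sign to SUN2. It also overlaps DNAL4 on the same strand (2848 reads), and SUN1 overlaps GET4 on the same strand (1114 reads against 29590).

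**Figure D4:**
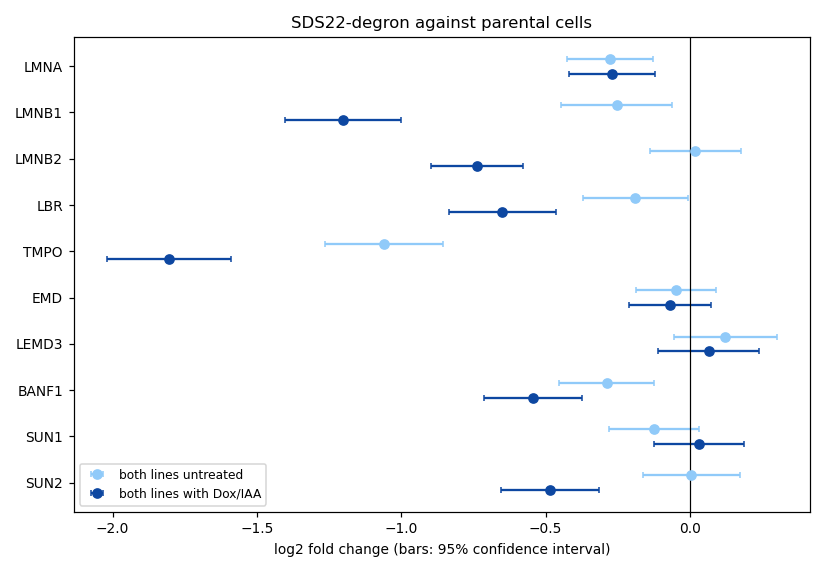
Log2 fold change of each gene in SDS22-degron against parental cells, untreated (light blue) and with Dox/IAA (dark blue). Bars are the 95% confidence interval derived from the edgeR test. TMPO was at -1.06 untreated and -1.81 with Dox/IAA, LMNB2 at 0.02 and -0.74, SUN2 at 0.01 and -0.49, and LMNA at -0.28 and -0.27.

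Markers of proliferating cells were compared with the members. All 6 of MKI67, TOP2A, CCNB1, CDK1, PCNA and MCM2 were detected, and their summed level was 1799 to 2118 CPM in untreated and 1488 to 2005 CPM in treated parental libraries. It was 2096 to 2119 CPM in untreated and 771 to 913 CPM in treated SDS22-degron libraries. All 6 fell with Dox/IAA in SDS22-degron cells (median -1.29 on the log2 scale), against 25.5% of all genes. In parental cells 2 of 6 fell, with a median of -0.24, against 15.7%. LEMD3 and SUN1 rose in the same SDS22-degron cells, and LEMD3 was called higher in parental cells too. Neither LEMD3 nor SUN1 was called in the interaction. The interaction was called lower for 6 of 6 markers (edgeR, adjusted p between 2.76e-05 and 0.00303), against 8.35% of all genes. Treated parental replicate 2, at 2005 CPM, had the highest sum of its group. It also had its group's highest level of LMNB1, LMNB2, LBR, TMPO and BANF1 and its lowest level of LMNA, LEMD3, SUN1 and SUN2. Between the untreated lines MKI67 was called higher and MCM2 lower, against 13.2% and 15% of all genes, with a median of 0.17 over the 6 markers. The members had a median of -0.16 there, with 4 lower and 0 higher. The part of proliferation in the changes of the lamina genes was not tested.

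Of 30 nuclear pore genes, 25 fell and 0 rose with Dox/IAA in SDS22-degron cells (median -0.46 on the log2 scale), against 25.5% and 26% of all genes. In parental cells 12 fell and 0 rose, with a median of -0.17, against 15.7% and 15.9%. The interaction was called lower for 15 and higher for 0, against 8.35% and 6.03%. The smallest interaction p-values were those of NUP155 (-0.63 ± 0.107, edgeR, adjusted p = 0.000655) and NUP205 (-0.47 ± 0.0866, adjusted p = 0.00139), of the inner ring of the pore, and NUP160 (-0.46 ± 0.0858, adjusted p = 0.00150), of its Y complex. Of 28 other envelope genes tested, among them nesprins, torsins, lamin-processing enzymes and membrane-sealing factors, 9 rose and 7 fell in SDS22-degron cells, with a median of 0.05, and 5 rose and 4 fell in parental cells, with a median of 0.00. Both pairs of counts were near the shares of all genes, 26% higher and 25.5% lower in SDS22-degron and 15.9% and 15.7% in parental cells. The interaction of these envelope genes was called higher for 3 and lower for 4, against 6.03% and 8.35% of all genes, and was not called for 21. VRK1, the kinase that releases BAF from DNA, was at 41.4% of its untreated level with Dox/IAA in SDS22-degron cells (log2 fold change -1.27 ± 0.118, edgeR, adjusted p = 8.23e-08) and its interaction was -0.96 ± 0.163 (adjusted p = 0.000695). NEMP1, an inner membrane protein, had an interaction of -0.78 ± 0.157 (edgeR, adjusted p = 0.00271). TMEM43, a partner of emerin, fell in parental cells by 0.44 ± 0.0685 and was at -0.09 ± 0.0698 in SDS22-degron cells (edgeR, adjusted p = 0.000113 and 0.272), with an interaction of 0.35 ± 0.0978 (adjusted p = 0.0227).

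The genes whose pattern was most like that of LMNB1 and LMNA were sought by the root mean square difference of log2 CPM, each gene centred on its mean over the 12 libraries, among 10454 genes with a mean of at least 10 CPM. For LMNB1 these were KIF22 (0.0521), TAF5 (0.0621), MCM5 (0.0629), FANCI (0.0657) and TUBB (0.0672), with a median of 0.594 over all candidates. For LMNA they were TRAF7 (0.0525), SH3KBP1 (0.0600), KEAP1 (0.0617), AKT1S1 (0.0619) and NQO2 (0.0677), with a median of 0.274. KIF22, a chromokinesin, had a log2 fold change of -1.16 with Dox/IAA in SDS22-degron cells and -0.22 in parental cells, side by side with -1.20 and -0.25 for LMNB1. KIF22 was picked for its likeness in these same libraries, so the nearness of these values follows from the choice.

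Neighbours on the chromosome of the members were compared between the lines as well. Within 5 Mb of LMNA, 163 tested genes had a median log2 fold change of -0.15 between the untreated and -0.15 between the treated lines, in the direction of LMNA (-0.28 and -0.27), and all 1658 tested genes of chromosome 1 were at -0.13 and -0.11. Around TMPO the 55 neighbours were at 0.07 and 0.12, and around LMNB1 the 37 neighbours were at 0.09 and 0.12, opposite in sign to both genes. Around LBR, also on chromosome 1, the 80 neighbours were at -0.08 and -0.03, in the direction of LBR (-0.19 and -0.65). The part of the chromosomal region in the differences of LMNA and LBR between the lines was not tested.

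The interaction was called lower for LMNB1, LMNB2, TMPO, SUN2 and LBR and was not called for LMNA, so the 150 bases before their RefSeq starts (GRCh38.p14) are shown for comparison, read on the strand of the gene. Capitals mark matches on either strand. The letters searched were CCAAT for the CCAAT box. For the cell cycle homology region they were TTTGAA and, as its other form, TTCGAA. For the E2F site they were TTCCCGC, besides the form TTGGCGC and the overlapping form TTTGGCG.
LMNB1, chr5:126776473-126776622, plus strand: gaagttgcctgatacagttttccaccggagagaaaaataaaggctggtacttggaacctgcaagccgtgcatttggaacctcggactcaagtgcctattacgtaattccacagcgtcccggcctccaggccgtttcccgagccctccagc
LMNB2, chr19:2456960-2457109, minus strand: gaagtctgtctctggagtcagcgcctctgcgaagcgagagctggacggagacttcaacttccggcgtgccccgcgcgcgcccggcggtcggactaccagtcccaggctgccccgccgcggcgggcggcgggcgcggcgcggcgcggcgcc
TMPO, chr12:98515423-98515572, plus strand: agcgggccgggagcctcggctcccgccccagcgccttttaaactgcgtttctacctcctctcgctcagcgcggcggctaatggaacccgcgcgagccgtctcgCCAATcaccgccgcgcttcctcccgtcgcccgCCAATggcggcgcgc
SUN2, chr22:38755999-38756148, minus strand: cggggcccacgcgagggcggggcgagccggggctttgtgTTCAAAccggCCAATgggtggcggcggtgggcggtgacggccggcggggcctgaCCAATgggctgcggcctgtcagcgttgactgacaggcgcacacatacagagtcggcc
LBR, chr1:225428822-225428971, minus strand: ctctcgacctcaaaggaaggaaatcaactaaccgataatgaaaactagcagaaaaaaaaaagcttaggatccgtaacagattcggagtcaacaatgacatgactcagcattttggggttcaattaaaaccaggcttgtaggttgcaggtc
LMNA, chr1:156082423-156082572, plus strand: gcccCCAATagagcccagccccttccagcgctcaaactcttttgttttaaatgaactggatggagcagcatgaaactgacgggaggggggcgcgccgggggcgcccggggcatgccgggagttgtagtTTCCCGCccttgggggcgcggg

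TMPO held 2 CCAAT boxes, with first bases at -47 and -15 from its start, and SUN2 held 2, at -101 and -57, with TTTGAA on the other strand at -111. LMNA held 1 CCAAT box at -146 and TTCCCGC at -22, and none of these letters was found in the stretches shown for LMNB1, LMNB2 and LBR. LMNB2 had TTTGAA further upstream, at -246. The starts are those of RefSeq, which for LMNB2, TMPO, SUN2 and LBR lie within the gene interval of the count table. For LMNA and LMNB1 the start shown is the outermost base of that interval. Only the first listed start of each gene is shown. The counts do not tell which start the cells used, so a stretch shown may not be the main promoter. A second RefSeq start of LMNB1 had CCAAT on the other strand at -138. Over the whole windows of 250 bases before to 50 after each start, 9 of the 10 members had an entry (all but SUN1), with 15 windows between them. CCAAT was found in 7 of the 15 windows (46.7%), against 34.6% of the 35116 promoter windows of all genes. Windows of 1 gene may overlap. TMPO held CCAAT at -47 and -15 in its first window and at -64 and -32 in its second, which may be the same bases. The cell cycle homology region was found in 2 of the 15 (13.3%), those of LMNB2 and SUN2, against 16.4%. The E2F forms were found in 3 of the 15 (20.0%), those of LMNA, BANF1 and LEMD3, against 10.3%. CCAAT stood in members that fell with Dox/IAA in SDS22-degron cells (TMPO, LMNA, SUN2, EMD and LMNB1) and in LEMD3, which rose.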

How the data were processed

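RNA of 12 libraries was prepared with a stranded poly-A kit and read as single reads of 75 bases. The authors deposited raw read counts per gene, unnormalized, and, for each gene, its position, length and GC percent. The submitters' processing notes name cutadapt 1.15, Bowtie2 2.3.3.1, STAR 2.5.2b, SAMtools 1.5, featureCounts 1.5.3 and GRCh38, without parameters. Gene positions overlapped those of GRCh38.p14 for 34660 of 34709 genes matched by symbol. Groups came from the sample labels, and 0 count columns were without a sample. The 10 members and all gene lists were chosen with earlier results of these data known. The other genes named are the 3 of each list with the smallest interaction p and the 5 most like LMNB1 and LMNA, besides overlapping genes and pseudogenes.

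A filter by expression in each group (filterByExpr, minimum count 10) left 16657 genes, which were normalized with TMM (factors 0.971 to 1.03) and fitted with 1 mean per group in edgeR 4.0.16 (R 4.3.3), with quasi-likelihood F tests and Benjamini-Hochberg adjustment over these genes. Standard errors of log2 fold changes had a median of 0.110, and of 0.156 for the interaction, at a common biological variation of 7.48%. Differences between replicates exceeded counting noise, and 0 columns were identical. CPM values are TMM-normalized, and ratios between genes use CPM per kb of gene model, so the size of such a ratio depends on the model. The fit was also run on simulated counts with changes of known size. These were drawn independently for each library, with the same spread for all genes. They lack the likeness between libraries of a replicate number, so the run is not used as evidence for the calls. The results were recomputed with edgeR's likelihood ratio test (the test of the study), with DESeq2 1.42.0, with other normalizations and filters, after a GC correction, on the compared groups alone, with a replicate block, without each library in turn, and with the study's cut-off (unadjusted p under 0.05 and absolute log2 fold change above 1). The chromosomal neighbours were chosen after seeing the data. Promoters are RefSeq's. Values were computed with pandas 2.3.3 and NumPy 2.4.6.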

Additional observations from a re-analysis of the deposited data

Results flagged for a closer look

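For 5 members the Dox/IAA effects of SDS22-degron and parental cells differed by the edgeR interaction test, with log2 differences of -0.95 for LMNB1, -0.76 for LMNB2, -0.75 for TMPO, -0.49 for SUN2 and -0.46 for LBR. The parental and SDS22-degron effects were -0.25 and -1.20 for LMNB1, -0.22 and -0.97 for LMNB2, -0.16 and -0.90 for TMPO, 0.22 and -0.27 for SUN2 and -0.26 and -0.72 for LBR. All but LBR kept this call in all 21 alternatives, and LBR lost it without untreated parental replicate 3 (-0.40) and without treated parental replicate 2 (-0.34).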

How the results depend on the processing

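Of 1090 values of single members recomputed under 21 or 22 alternatives, the study's cut-off aside, 1042 stayed called or uncalled as reported. The call was lost by 42 and gained by 6, and 0 called values reversed. Values that were not called could change sign, as LMNB2 did between the untreated lines (-0.03 to 0.10). All calls between the treated lines were kept, as were all medians of the members in direction. The study's cut-off asks for an absolute log2 fold change above 1 and left 2 members lower between the treated lines, 1 between the untreated lines, 1 lower and 0 higher with Dox/IAA in SDS22-degron cells, 0 in either direction in parental cells and 0 lower in the interaction. With Dox/IAA in parental cells, 3 members were lower with library size only and with only the groups compared, and 1 was higher with the GC correction, alone or with the replicate block. With single libraries left out, the members called there ranged from 3 to 7 lower and from 1 to 3 higher. Over the alternatives, the nuclear pore genes called lower there ranged from 6 to 16 (12 as reported), and the other envelope genes from 1 to 7 higher (5) and from 2 to 5 lower (4). Apart from the cut-off itself, the cause of these changes was not tested.

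Libraries with the same replicate number deviated from their group means with r over 0.1 in 7 of 18 pairs (median 0.0946). Pairs with other numbers did so in 0 of 36 (median -0.0349, highest 0.0845), and 12 of 12 libraries correlated best with their own number. Deviations were thus more alike within a number than between numbers. The main fit did not pair the samples by number, and a replicate block was fitted as an alternative. With the replicate block, the members called lower were 7 between the treated lines, 5 between the untreated lines (LBR added, -0.19, edgeR, adjusted p = 0.0464) and 5 in the interaction. With the block and GC correction together, 6 were lower between the untreated lines, SUN1 added (-0.17, adjusted p = 0.0425). At 3 libraries per group, smaller differences than those given may have gone uncalled.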
